A study of Mus musculus with 36 samples.

Results

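The genes described here are the growth hormone and STAT5 axis, 10 genes taken from 19001 in a paired-end table and 17697 in a single-end table of mouse RNA sequencing. The members were found by NCBI gene number and are the receptor Ghr, the signal transducers Stat5a and Stat5b, the endocrine outputs Igf1 and Igfals, the feedback inhibitors Socs2, Cish, Socs1 and Socs3, and the transcriptional repressor Bcl6. All 10 were present once in each table. The members were chosen by the measured levels of irradiated wt liver, where Bcl6 was higher and Cish lower, so values of that comparison are given as a description, with no test.

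Growth hormone binds its receptor on hepatocytes and other cells, the receptor activates the kinase JAK2, and JAK2 phosphorylates STAT5A and STAT5B, which then enter the nucleus. In liver, STAT5 drives transcription of Igf1, Igfals and the SOCS-family genes Socs2 and Cish, whose proteins dampen the same signal. BCL6 is a zinc finger repressor that can bind DNA elements resembling those of STAT factors. In lymphoid organs the same STAT5 proteins act mainly downstream of interleukin and other cytokine receptors.

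Liver, spleen and thymus pieces came from mice called wt, which carry wild-type p53, and mice titled d24, while the series' design text names a C-terminal p53 deletion as the second genotype. The 18 paired-end libraries were wt tissues without treatment or 3 h after 2 Gy of X-rays, with 3 libraries per tissue and treatment. The 18 single-end libraries were wt and d24 tissues, all titled xray, again with 3 per tissue and genotype. The labels gave no age, strain, sex or animal for any library and did not say whether the replicates were separate animals. The p-values thus measure the spread between these libraries, and how much of it is technical is not known. Xist, given below, shows that no paired-end group came from a single animal.

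The labels of the single-end libraries conflicted. Of the 36 libraries, 9 titled xray carried the treatment tag control (d24 liver, d24 thymus and wt spleen), and all 9 titled d24 carried the tag WT. Cdkn1a, a p53 target gene that irradiation raises, was 3.74 to 16.0 in the untreated and 97.7 to 162 in the X-ray paired-end libraries. In the single-end table it was 5.46 to 9.37 in wt spleen against 319 to 416 in d24 spleen, and in wt liver it was 17.7, 34.4 and 147. Genotype and response to irradiation cannot be told apart in that table, and its groups are named by their titles only. Libraries also differed in sex by Xist, the RNA of the inactive X chromosome: Xist was 361 to 625 in 1 of 3 untreated and 2 of 3 X-ray paired-end libraries of every tissue and at most 0.574 in the rest. The high ones were replicate 1 of the untreated and replicates 1 and 2 of the X-ray libraries in each tissue. The 3 libraries of a paired-end group therefore did not all come from the same animal. Whether the same animals gave all 3 organs is not stated, and the main fits between tissues treated libraries as independent. In single-end d24 spleen and d24 thymus all 3 libraries had high Xist. Levels throughout are the deposited normalised signal, in which a single read was worth 0.00991 to 0.0828 units. Pieces of organ hold many cell types, and in such bulk samples fewer cells of a type and less RNA per cell cannot be told apart.

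Promoter sequence is shown first, for 3 members whose windows matched a STAT-type motif and whose liver levels did not overlap between treatments. They were picked for having both, so nothing is read from motif and liver change occurring together. Socs3 had a match, but its liver levels overlapped. Stat5a, Stat5b and Socs1 had liver levels without overlap and no match, and Socs2 had such levels but no window. Windows of 300 bases, from 250 before to 50 after an annotated start, were taken from RefSeq (GRCm38.p6) for 9 of the 10 members, 15 windows in all. For this, 2 motifs were searched on both strands: TTCNNNGAA, the palindrome that STAT5 favours, and TTCCTNGAA, a BCL6 core that is itself a TTCNNNGAA match. TTCNNNGAA was present in 8.30% of all 32851 RefSeq mouse windows and TTCCTNGAA in 1.59%. A match is a description of the letters, not evidence of binding. The windows below are printed 5′ to 3′ on the strand of the gene, with TTCNNNGAA matches in capitals.
Cish, chr9:107296409-107296708, plus strand: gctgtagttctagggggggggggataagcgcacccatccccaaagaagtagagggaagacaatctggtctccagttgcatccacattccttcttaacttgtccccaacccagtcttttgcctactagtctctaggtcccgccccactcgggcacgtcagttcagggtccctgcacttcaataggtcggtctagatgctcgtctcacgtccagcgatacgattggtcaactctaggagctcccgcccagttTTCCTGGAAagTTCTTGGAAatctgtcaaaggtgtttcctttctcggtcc
Bcl6, second window, chr16:23981234-23981533, minus strand: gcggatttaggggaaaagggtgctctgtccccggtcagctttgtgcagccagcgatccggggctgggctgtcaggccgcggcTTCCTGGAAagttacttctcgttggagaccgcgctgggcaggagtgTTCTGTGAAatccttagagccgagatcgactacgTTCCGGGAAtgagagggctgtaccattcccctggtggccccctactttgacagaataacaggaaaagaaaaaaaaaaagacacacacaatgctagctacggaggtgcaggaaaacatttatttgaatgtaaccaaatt
Igfals, second window, chr17:24877981-24878280, plus strand: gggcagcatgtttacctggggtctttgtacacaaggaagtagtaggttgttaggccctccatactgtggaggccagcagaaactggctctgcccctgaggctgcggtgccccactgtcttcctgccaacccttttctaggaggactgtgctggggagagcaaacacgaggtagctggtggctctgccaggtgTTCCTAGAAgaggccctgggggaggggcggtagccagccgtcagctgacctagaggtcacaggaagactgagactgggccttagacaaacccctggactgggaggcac

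The Cish window held 2 matches, TTCCTGGAA beginning at the annotated start and TTCTTGGAA beginning 11 bases after it. Only 0.457% of all windows (150 of 32851) held 2 or more matches. The second Bcl6 window held 3 matches, TTCCTGGAA, TTCTGTGAA and TTCCGGGAA, whose first bases lay at positions -168, -122 and -88 from the start, and 11 windows in the whole table (0.0335%) held 3 or more. Both Bcl6 and Cish carried TTCCTGGAA, which is a TTCCTNGAA match as well. Igfals had TTCCTAGAA at -58 in its second window and TTCTCAGAA at -236 in its first, Socs3 had TTCTTAGAA at -154, and the first Bcl6 window had TTCTCAGAA at -118. No TTCNNNGAA was in the windows of Ghr, Stat5a, Stat5b, Igf1 or Socs1, so 4 of the 9 members with a window matched, against 9.55% of all 27025 genes. These shares are not like for like. A match in any window counts, and members had more windows per gene (15 for 9 members) than all genes (32851 for 27025). The members were also chosen as genes of this axis.

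In untreated wt tissues, Ghr, Igf1, Igfals, Socs2 and Cish were highest in liver, whereas Bcl6, Socs1, Socs3, Stat5a and Stat5b were highest in thymus. Ghr was 638, 691 and 604 in the 3 liver libraries, 5.81, 3.93 and 4.04 in spleen and 6.16, 4.21 and 9.08 in thymus. Igf1, the circulating growth factor, was 941, 1191 and 1197 in liver and at most 27.5 in either lymphoid organ. Igfals, the acid-labile subunit that holds IGF1 in its serum complex, was 140.3, 182 and 153 in liver, 0.129 to 0.266 in spleen and 0.902 to 1.53 in thymus. Liver stood far above both lymphoid organs for these genes, with no overlap. The log2 difference between liver and spleen was 7.002 ± 0.21 (SE) for Ghr, 5.39 ± 0.12 for Igf1 and 7.81 ± 0.16 for Igfals. All 10 members differed between the 3 tissues by limma's F test with Benjamini-Hochberg adjustment, as did 95.9% of all 15141 genes tested, so the count does not set the members apart from other genes.

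The inhibitors divided by tissue. Socs2, a SOCS protein with strong ties to growth hormone signalling, was 95.5, 153 and 99.2 in liver and 4.27 to 6.52 in spleen and thymus. Cish was highest in liver (47.8, 94.9 and 39.4), lower in spleen (16.7, 16.8 and 20.0) and lowest in thymus (7.74 to 9.12). Socs1, an inhibitor of interferon and interleukin receptors, ran the other way, at 0.302 to 0.456 in liver, 0.623 to 1.01 in spleen and 15.6, 17.1 and 12.5 in thymus. No library of one tissue overlapped another for Cish or Socs1. Socs3, which acts on the IL-6 receptor family, was low everywhere, at 1.91 to 5.50 in liver, 2.70 to 3.82 in spleen and 5.19 to 6.89 in thymus, and its liver and spleen libraries overlapped.

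Bcl6 was lowest in liver (6.35, 8.53 and 8.45), higher in spleen (11.04, 11.4 and 13.8) and highest in thymus (42.6, 52.8 and 41.3), and the tissues did not overlap. The thymus level exceeded that of liver by 2.48 ± 0.14 on the log2 scale. Stat5a was 29.2 to 32.7 in liver, 28.3 to 40.7 in spleen and 61.7 to 69.8 in thymus, so liver and spleen were neighbours that did not differ beyond their spread (liver minus spleen -0.08 ± 0.12). Stat5b was 124 to 137 in liver, 52.8 to 68.2 in spleen and 151 to 180.1 in thymus. Neighbours that the limma test did not separate were liver and spleen for Stat5a and Socs3 and spleen and thymus for Ghr. Of the 10 members 8 were called between liver and spleen, 10 between liver and thymus and 9 between spleen and thymus, beside 85.9%, 86.4% and 72.6% of all genes.

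The scaling of the columns moved these tissue differences. Under plain CPM, an alternative chosen after the data were seen, the median of all genes moved to -0.87 for liver minus spleen, -1.45 for liver minus thymus and -0.55 for spleen minus thymus. Socs3 then changed sign between liver and spleen (-0.75, against 0.13 as deposited) and Igf1 between spleen and thymus (-0.23, against 0.39), and the calls for Stat5b between liver and spleen and for Cish between spleen and thymus were lost. Stat5a between liver and spleen (-1.11) and Ghr between spleen and thymus (-1.01) then passed. The gaps of Ghr, Igf1, Igfals, Socs2, Socs1 and Bcl6 between liver and thymus kept their sign and call.

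Per kilobase of exon, the order of members within a tissue could be compared. In untreated liver Igf1 was first at 112 ± 14.8 (SD, n = 3) signal per kilobase, followed by Ghr (71.2 ± 4.86), Igfals (49.99 ± 6.78) and Stat5b (23.8 ± 1.27), with Bcl6 at 1.16 ± 0.18 and Socs1 last at 0.129 ± 0.027. In spleen and thymus Stat5b led the 10 members, at 10.96 ± 1.39 and 29.8 ± 2.64 per kilobase. Stat5b exceeded its neighbour Stat5a per kilobase by 5.51 ± 0.14 times in untreated liver, 3.24 ± 0.09 times in thymus and 2.39 ± 0.34 times in spleen (SD, n = 3). The 2 genes lie side by side on chromosome 11 (GRCm38, Stat5b at 100780731 to 100859004 and Stat5a at 100859351 to 100885169), and their coding sequences are similar, so reads could be split between them by a counting method that is not given in the sources used here.

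**Figure D1:**
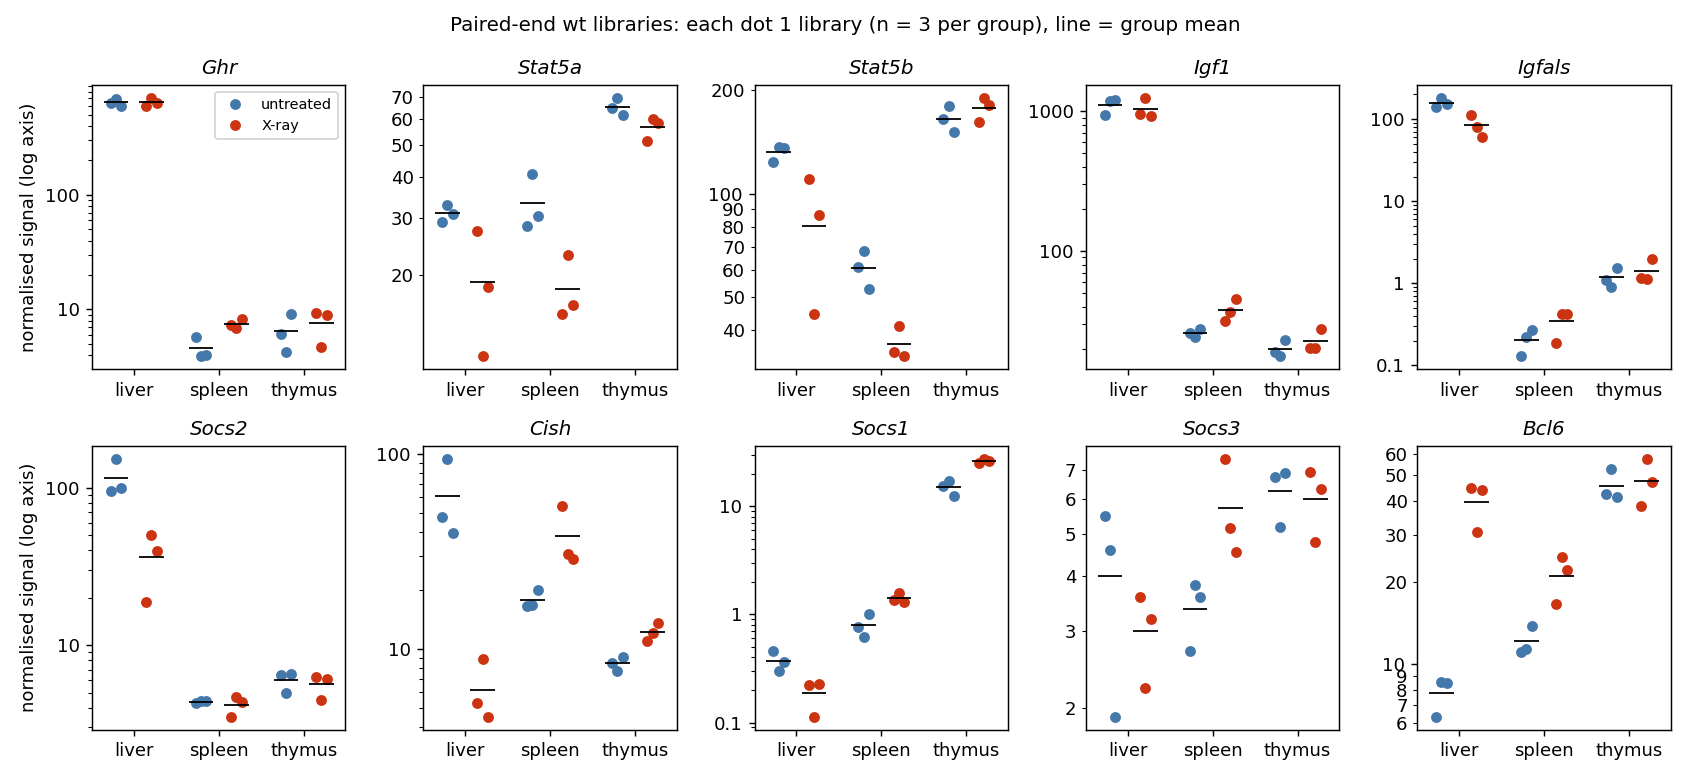
Deposited normalised signal (log axis) of the 10 members in wt liver, spleen and thymus of the paired-end table, untreated in blue and X-ray in red, each dot 1 library and each line the mean of 3. In liver the X-ray dots of Bcl6 (30.8 to 44.6) lie above and those of Cish (4.50 to 8.85) below the untreated ones, while in spleen both genes are higher in the X-ray libraries.

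In irradiated wt liver, the comparison by which the members were chosen, Bcl6 was 44.6, 30.8 and 44.0 against 6.35, 8.53 and 8.45 without treatment. Its mean was 5.12 times the untreated one, and the log2 difference was 2.28 ± 0.19 (SE). Cish was 5.27, 8.85 and 4.50 against 47.8, 94.9 and 39.4, and the untreated mean was 9.78 times the X-ray mean (log2 difference -3.14 ± 0.34). Both pairs of groups stood clear of each other. The highest Cish value of X-ray liver was thus under the lowest untreated one by a wide margin, and the untreated libraries themselves spread over a range from 39.4 to 94.9.

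Among the other liver members, the feedback inhibitor Socs2 was 18.7, 49.8 and 39.8 after X-rays against 95.5, 153 and 99.2, a log2 difference of -1.75 ± 0.34. Igfals was 114, 80.7 and 61.2 against 140.3, 182 and 153 (-0.93 ± 0.21). Stat5a was 27.4, 11.3 and 18.4 against 29.2, 32.7 and 30.8 (-0.77 ± 0.27). Stat5b was 111, 44.6 and 86.5 against 124, 137 and 135 (-0.80 ± 0.28). The X-ray library with the lowest Stat5a, replicate 2, also had the lowest Stat5b, and no X-ray library of these genes reached the lowest untreated one. In contrast, Ghr (593 to 705 against 604 to 691) and Igf1 (933 to 1249 against 941 to 1197) overlapped, with log2 differences of -0.01 ± 0.11 and -0.09 ± 0.16.

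Socs3 overlapped too (2.22 to 3.59 against 1.91 to 5.50), and Socs1, below the expression filter in liver, was 0.113 to 0.228 against 0.302 to 0.456. Of the 9 members tested in liver, 1 was higher and 5 were lower with no overlap between groups, where 27.4% of all 13250 genes had no overlap, 13.5% higher and 13.9% lower. The limma threshold was passed by 0.242% of all genes, 0.204% higher and 0.0377% lower. Nothing is read from these counts, since this contrast chose the members. Xist was high in 2 of the 3 X-ray and 1 of the 3 untreated liver libraries, and with Xist as a covariate the log2 differences were 2.37 for Bcl6 and -3.17 for Cish. The untreated liver library with high Xist (replicate 1) had Bcl6 6.35 and Cish 47.8, and the X-ray library with low Xist (replicate 3) had 44.0 and 4.50.

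Other genes of growth hormone and cytokine signalling in the same liver comparison were described by lists. Of the 23 tested genes of the JAK-STAT list (JAK kinases, other STATs, SOCS4 to SOCS7, prolactin and leptin receptors, phosphatases and PIAS proteins), 0 were called, with a median log2 difference of 0.01 beside -0.05 for all genes. In the IGF axis (13 tested: ligands, receptors, binding proteins and proteases) 0 were called, although Igfbp1, which encodes an IGF-binding protein of fasting liver, was 398, 273 and 843 against 80.6, 157 and 156. Of the 4 growth-hormone-responsive hepatic genes, 1 was called lower, the liver transcription factor gene Onecut1 (3.07, 5.24 and 2.55 against 19.4, 23.7 and 28.6). Sex-biased liver genes, many of which STAT5 and BCL6 are known to govern, gave 0 calls among 11 male-biased (median -0.14) and 16 female-biased genes (median -0.03). Xist was high in 1 of the 3 untreated and 2 of the 3 X-ray liver libraries. Sex thus enters both the spread and the group difference of these genes, and nothing is read from these counts or medians.

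Fasting and glucocorticoid genes gave 1 call of 12, Tat, a gluconeogenic aminotransferase gene (1.39 ± 0.17). BCL6 target genes gave 1 of 5, the chemokine gene Cxcl10 (11.5, 13.6 and 11.4 against 4.63, 3.90 and 4.84). The clock list had a median of 0.86 with 0 of 11 called. Hepatocyte markers summed to 350981 to 394434 in X-ray and 332383 to 377413 in untreated liver. Calls over all genes in this comparison made up 0.242%.

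**Figure D2:**
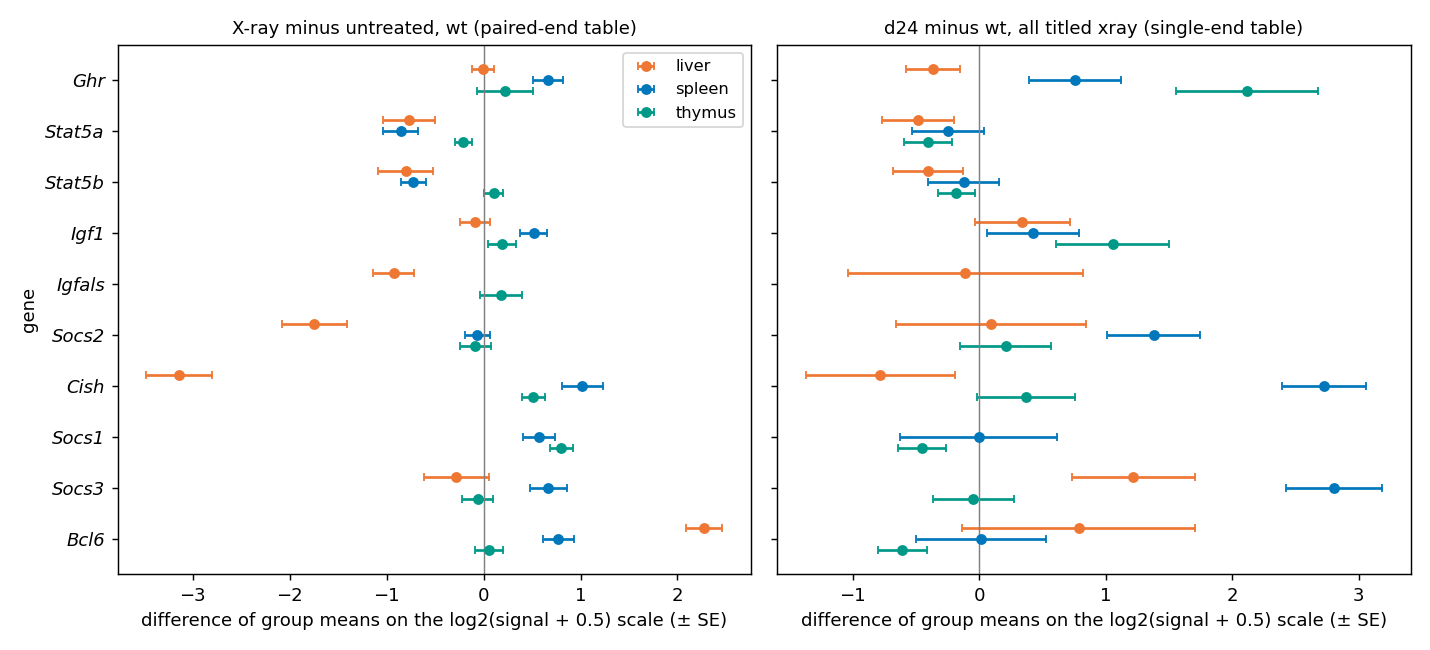
Log2 difference ± SE of each member (log2 of signal plus 0.5), X-ray minus untreated in wt tissues of the paired-end table (left) and d24 minus wt in the single-end table (right), in liver, spleen and thymus, n = 3 per group. The liver difference of Cish after X-rays (-3.14) lies on the other side of 0 from those of spleen (1.02) and thymus (0.51), and in the single-end liver the bars of Bcl6 (SE 0.92) and Igfals (SE 0.93) are wide.

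In irradiated wt spleen Cish and Bcl6 were higher and Stat5a and Stat5b lower. Cish was 54.0, 30.9 and 29.2 after X-rays against 16.7, 16.8 and 20.0 untreated, an increase of 1.02 ± 0.21 on the log2 scale (limma, Benjamini-Hochberg adjusted p = 0.00631). Bcl6 was 16.6, 24.8 and 22.2 against 11.04, 11.4 and 13.8 (0.77 ± 0.16, limma adjusted p = 0.00595). Each X-ray library exceeded each untreated one for both genes. Both genes rose in spleen, with Bcl6 at 1.75 times and Cish at 2.13 times the untreated mean.

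Both transducers fell in spleen. Stat5a was 15.3, 23.0 and 16.2 against 28.3, 40.7 and 30.4, a fall of -0.86 ± 0.18 (limma adjusted p = 0.0069). Stat5b was 34.6, 41.2 and 33.7 against 61.1, 68.2 and 52.8 (-0.72 ± 0.13, limma adjusted p = 0.00314). In every comparison of an X-ray with an untreated library the X-ray one was lower. The gap per kilobase between the pair stayed close, with Stat5b at 2.31 to 2.92 times Stat5a after X-rays and 2.16 to 2.78 times before.

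Another 3 members, Socs3, Ghr and Igf1, rose in spleen under the deposited scaling. The inhibitor Socs3 was 7.44, 5.17 and 4.54 against 2.70, 3.82 and 3.59 (0.67 ± 0.19, limma adjusted p = 0.0226). Socs1 was 1.37, 1.57 and 1.31 against 0.758, 0.623 and 1.01. It passed the expression filter only through the X-ray group, so its values are given with no test. The nearest libraries of the groups were less than 1 unit of signal apart for both genes. Ghr was 7.27, 6.93 and 8.23 against 5.81, 3.93 and 4.04 (0.66 ± 0.16, limma adjusted p = 0.0108). Igf1 was 31.5, 36.4 and 45.1 against 25.9, 24.4 and 27.5 (0.52 ± 0.14, limma adjusted p = 0.0178). Socs2 did not pass (3.51 to 4.72 against 4.27 to 4.44), and Igfals, at 0.423 or less in all 6 libraries, was not tested.

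Leaving out Socs1, 5 members were called higher and 2 lower among 8, while 40.0% of all 13389 genes were called, 19.5% higher and 20.4% lower. Groups did not overlap for 7 of the 8, as for 53.3% of all genes, 24.5% higher and 28.8% lower. The median log2 difference of the 8 was 0.59, beside -0.03 for all genes. Under plain CPM the median of all genes moved to -0.19, the split of all calls went from 2614 higher and 2737 lower to 1167 higher and 3553 lower, and 4 members were called, with Bcl6 and Cish higher and Stat5a and Stat5b lower. Those 4 genes passed under all settings tried, with adjusted p at most 0.0494 for Bcl6 and 0.0297 for Cish over the limma, edgeR and DESeq2 fits. Without untreated replicate 1 or without X-ray replicate 3, 5 of the 9 members tested were called, where 8 were with all libraries, Socs1 included.

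Markers of some other cells moved with irradiation in spleen, where 40.0% of all genes were called, 19.5% higher and 20.4% lower. Macrophage markers (4 of 4 tested, the levels summing to 377 to 584 against 258 to 331) and neutrophil markers (3 of 5, summing to 299.7 to 692 against 235 to 300.05) had members that rose, the latter sums overlapping between groups. Megakaryocyte markers had 3 of 4 called higher (summing to 139.9 to 162 against 92.4 to 119). Hepatocyte markers had 7 of 7 called higher, Cps1, Apoa1 and Ttr among them with untreated libraries under a signal of 1, and summed to 96.5, 541 and 462 against 53.7, 44.5 and 64.7, whereas liver itself reached at least 332383. Values under 1 do not count toward the expression filter, so such genes leaned on the X-ray libraries to pass it. Nothing is read from their calls. The X-ray spleen library with the lowest hepatocyte sum, replicate 1, had Ghr 7.27 and Igf1 31.5, both above all untreated libraries. Its hepatocyte sum of 96.5 was above all untreated libraries too. The part of these cells in the members' changes was not tested beyond these values. T cell markers gave 1 call of 5, and B cell markers 2 of 5 with sums of 956 to 1349 against 939 to 1132.

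The wider pathway in spleen followed no single direction. In the JAK-STAT list 4 of 23 rose and 2 fell, among them Jak3, the kinase of the common gamma chain receptors (20.5, 26.9 and 22.4 against 10.7, 11.96 and 14.2, limma adjusted p = 0.00178), and Stat6 (0.83 ± 0.14, limma adjusted p = 0.00233). Of 12 cytokine receptor genes that signal through STAT5, 7 rose and 0 fell, including Csf2ra, a GM-CSF receptor chain (12.2, 14.99 and 13.2 against 5.97, 7.24 and 7.001), with a list median of 0.55. STAT5 targets of blood cells had 3 rising and 1 falling of 10: the cyclin gene Ccnd2 rose by 1.404 ± 0.22, the kinase gene Pim1 by 0.77 ± 0.16, and Ccnd3 fell by 1.11 ± 0.20. Of 8 BCL6 target genes 5 rose and 0 fell, led by Id2, an inhibitor of helix-loop-helix factors (75.3, 84.4 and 83.8 against 28.7, 24.5 and 30.5). Genes of germinal centre B cells and follicular helper T cells, cell types that need BCL6, had 4 called higher and 0 lower of 8. One of them, Mef2b (7.44, 10.4 and 8.10 against 0.351, 0.592 and 0.550), passed the expression filter only through the X-ray group, and the next by p was Mybl1 (1.65 ± 0.19). These shares stand beside the 40.0% of all genes called in spleen, 19.5% higher and 20.4% lower. List counts were made under the deposited scaling only, and under plain CPM fewer of all genes were called higher, as given above.

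In irradiated wt thymus only Socs1 and Cish passed. Socs1 was 25.2, 27.7 and 26.4 after X-rays against 15.6, 17.1 and 12.5, a rise of 0.80 ± 0.12 (limma adjusted p = 0.00214), and it passed in every alternative. Cish was 11.1, 12.1 and 13.6 against 8.48, 7.74 and 9.12 (0.51 ± 0.12, limma adjusted p = 0.0141). The groups of both genes did not overlap. Cish lost its call without untreated replicate 2 (limma adjusted p = 0.0524), without X-ray replicate 3 (0.0538) and in a single fit of all 18 libraries (0.236). In all, 2 of 10 members were higher and 0 lower, while 21.3% of all 13810 genes were called, 9.77% higher and 11.6% lower. Without overlap 2 were higher and 1 was lower, beside 40.6% of all genes, 18.6% being higher.

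Bcl6 in thymus was 38.3, 57.6 and 47.2 after X-rays and 42.6, 52.8 and 41.3 before, overlapping (0.05 ± 0.15). Stat5a was 51.5, 59.9 and 58.5 against 65.0, 69.8 and 61.7, without overlap and without passing (-0.21 ± 0.09, limma adjusted p = 0.109). Stat5b overlapped (161, 189.9 and 181 against 164, 180.1 and 151). The pair therefore shifted in proportion: Stat5b was 3.99 to 4.08 times Stat5a per kilobase after X-rays and 3.15 to 3.32 times before, with no overlap, a measure that was not tested. Ghr, Igf1, Igfals, Socs2 and Socs3 each overlapped between thymus groups.

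Other thymus lists gave mixed calls. JAK-STAT genes had 2 rising, Jak3 (0.57 ± 0.13) and the adaptor gene Grb10 (0.54 ± 0.14), and 2 falling, the phosphatase genes Ptpn2 (-0.38 ± 0.09) and Ptpn6 (-0.31 ± 0.08), of 22. The IGF axis had 3 rising and 0 falling of 14, with Igf2r at 0.58 ± 0.09. BCL6 target genes had 5 called higher and 0 lower of 9, among them the cell cycle inhibitor gene Cdkn1b (0.51 ± 0.08). The chemokine gene Ccl3 was another (6.84, 2.77 and 7.67 against 0.279, 0.387 and 0.378), and it passed the expression filter only through the X-ray group. Cytokine receptors that use STAT5 had 0 of 10 called. These shares stand beside the 21.3% of all genes called in thymus (9.77% called higher). T cell markers had 0 of 5 called and summed to 2647 to 3400 after X-rays and 2941 to 3333 before. Hepatocyte markers summed to 168, 197 and 1521 against 214, 59.2 and 68.6, and neutrophil markers to 34.7 to 70.1 against 21.1 to 33.0. Macrophage markers had 2 of 4 called higher (sums of 167 to 247 against 126 to 165) and thymic epithelial markers 2 of 4 (441 to 535 against 280.3 to 295). The sums of these last 3 lists did not overlap between groups, and their part in the calls of Socs1 and Cish was not tested.

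The X-ray effects of spleen and thymus were compared directly, leaving the liver effect aside. By limma's interaction contrast 0 of 10 members differed (2 at an unadjusted p under 0.05), while 9.54% of all 15654 genes did (4.15% higher and 5.39% lower), and edgeR gave 0 and DESeq2 gave 1, Bcl6. The difference between the effects was 0.72 ± 0.26 for Bcl6 (limma adjusted p = 0.0999) and -0.83 ± 0.31 for Stat5b (0.103). A change in spleen and not in thymus is therefore not shown for any member under the main fit. Cish was higher in both lymphoid organs and lower in liver, a difference in direction that was not tested, since the liver fall chose the gene.

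**Figure D3:**
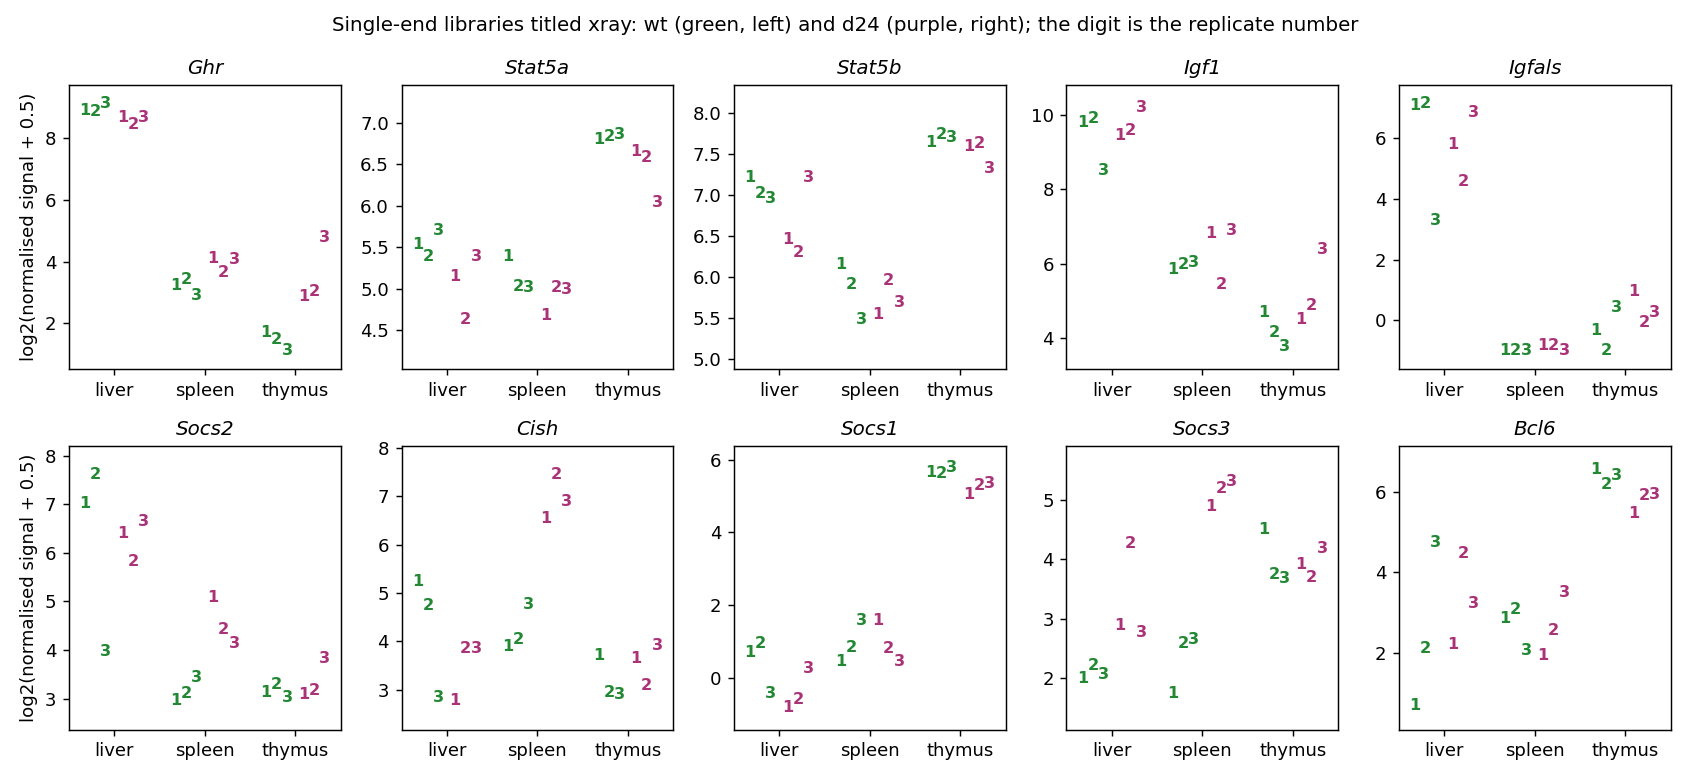
Log2 of the deposited signal plus 0.5 for the 10 members in the single-end libraries titled xray, wt in green on the left and d24 in purple on the right of each tissue, each digit 1 library named by its replicate number. The d24 spleen libraries of Cish and Socs3 lie above all wt spleen libraries, and wt liver replicate 3 lies apart from replicates 1 and 2 for Bcl6, Cish, Igfals and Socs2.

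In the single-end table, d24 spleen had far more Cish and Socs3 than wt spleen. Cish was 92.6, 173 and 119 in d24 and 14.4, 15.9 and 26.7 in wt, a log2 difference of 2.73 ± 0.33 (limma adjusted p = 0.00109). Socs3 was 28.9, 36.01 and 39.0 against 2.84, 5.47 and 5.77 (2.80 ± 0.38, limma adjusted p = 0.00206). The means were 6.74 and 7.38 times those of wt, and the groups were far apart. Socs2 was 33.3, 21.0 and 17.1 against 7.28, 8.15 and 10.3, also without overlap, and did not pass (1.38 ± 0.37, limma adjusted p = 0.0854). These 3 inhibitors are all induced by cytokine-activated STAT proteins.

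The rest of the axis in spleen did not pass. Bcl6 was 3.30, 5.42 and 10.9 in d24 and 6.67, 7.93 and 3.64 in wt, and the log2 difference of 0.01 ± 0.51 leaves a wide interval. Ghr was 16.7, 12.1 and 16.2 against 8.81, 10.3 and 6.94, with no overlap (0.76 ± 0.36, limma adjusted p = 0.399). Stat5a, Stat5b, Igf1 and Socs1 overlapped, and Igfals was listed at 0 in the wt libraries and at no more than 0.0691 in d24. In all 2 of 9 tested members were higher and 0 lower, where 2.28% of all 13554 genes were called, 1.04% higher and 1.24% lower. Without overlap 4 were higher and 0 lower, beside 19.3% of all genes, 8.74% higher and 10.6% lower. The members' median was 0.43 beside -0.05 for all genes.

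Several things moved with the d24 spleen group. All 3 d24 spleen libraries and 1 of 3 wt ones had high Xist. With Xist as a covariate Cish kept its call (2.95, limma adjusted p = 0.0113) and Socs3 lost it (2.59, 0.0942); the wt library with high Xist, replicate 2, had Cish 15.9 and Socs3 5.47. Neutrophil markers summed to 67.6 to 501 in d24 and 1567 to 5752 in wt (5 of 6 lower), megakaryocyte markers to 29.4 to 42.1 and 368 to 875 (4 of 4 lower), and B cell markers to 55.0 to 291 and 447 to 571 (1 of 5 lower). Cdkn1a was 319 to 416 in d24 and 5.46 to 9.37 in wt, so genotype and irradiation cannot be told apart for Cish and Socs3.

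Among related genes of d24 spleen, 1 of 10 STAT5 targets of blood cells was called, Osm, the cytokine oncostatin M (9.07, 14.9 and 10.9 against 2.23, 1.89 and 3.60, limma adjusted p = 0.0395). Pim1 did not pass, at 207, 389.7 and 292 against 97.7, 120.4 and 166 (1.19 ± 0.31, limma adjusted p = 0.0696). JAK-STAT genes had 0 of 23 called and the IGF axis 0 of 14. Among the 8 acute phase and STAT3 genes tested, 1 rose, the gp130 receptor gene Il6st (2.19 ± 0.42), and 2 fell, Hp (-2.45 ± 0.44) and Lcn2 (-3.26 ± 0.65).

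In single-end liver the libraries of a group disagreed. Bcl6 was 1.12, 3.81 and 26.1 in wt and 4.11, 21.6 and 8.78 in d24. Cish was 37.1, 26.2 and 6.69 in wt and 6.36, 13.9 and 13.9 in d24. The wt library replicate 3 had the highest Bcl6 and the lowest Cish of its group, and also the lowest Socs2 (15.3 against 129 and 194), Igfals (9.23 against 135 and 142) and Igf1 (366 against 888 and 964). Its Cdkn1a was 147, against 17.7 and 34.4 in the other wt libraries, while Ghr in it was 556 against 476 and 463.

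With groups this wide, 0 of 9 tested members were called by limma (1 at an unadjusted p under 0.05, and 0 by edgeR and by DESeq2), where 0.526% of all 13695 genes were, 0.277% higher and 0.248% lower. Without overlap 1 was higher and 1 lower, beside 19.1% of all genes, 7.56% higher and 11.5% lower. The log2 difference was 0.79 ± 0.92 for Bcl6 and -0.78 ± 0.59 for Cish, and without wt replicate 3 it was 1.90 (limma adjusted p = 0.438) and -1.49 (0.282). Without wt replicate 1 the Bcl6 difference changed sign, to -0.12. Socs3 was 6.92, 18.7 and 6.32 in d24 and 3.48, 4.14 and 3.68 in wt, with no overlap (1.22 ± 0.49, limma adjusted p = 0.325). Ghr was lower in each d24 library (408, 348 and 404 against 476, 463 and 556) and did not pass (-0.37 ± 0.21, limma adjusted p = 0.499). Under plain CPM the median of all genes in this comparison moved from -0.08 to -0.30.

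**Figure D4:**
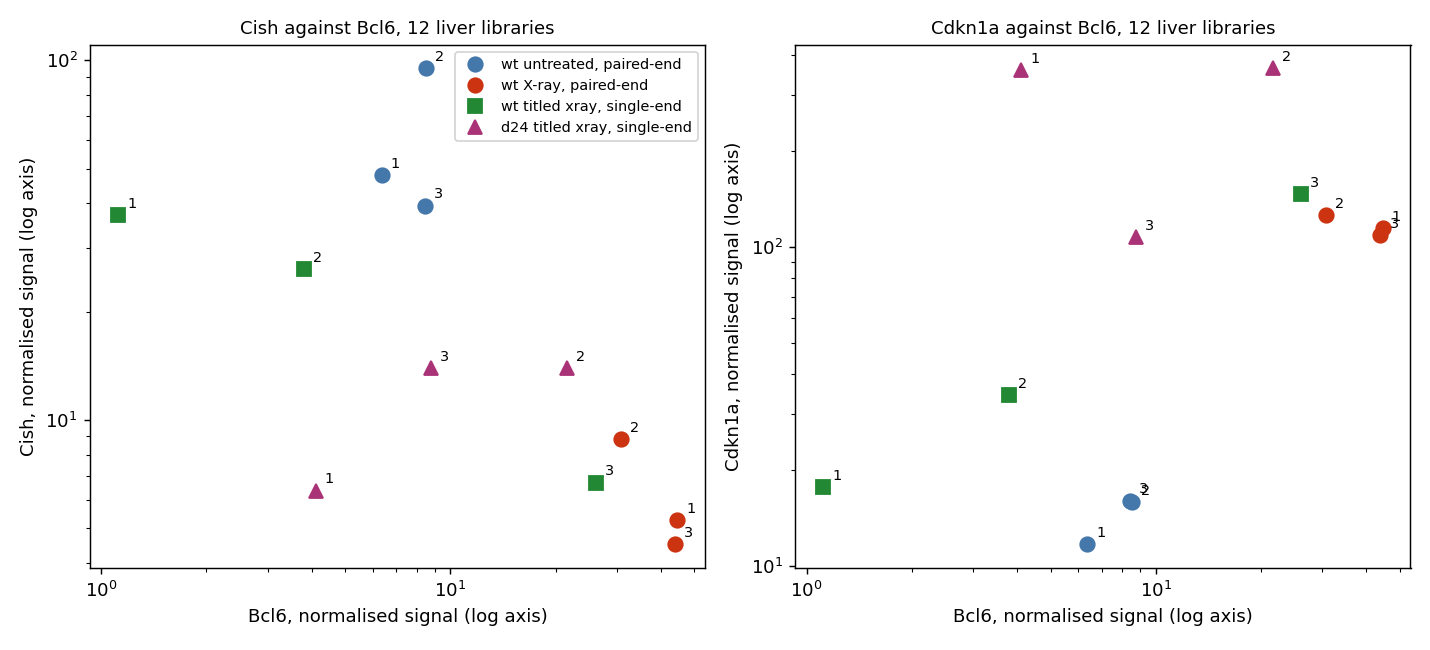
Deposited signal of Cish (left) and Cdkn1a (right) against Bcl6, all on log axes, in the 12 liver libraries, labelled by replicate, with paired-end circles and single-end squares and triangles. The tables were normalised separately, so positions are compared within a table: among single-end wt libraries replicate 3 has Bcl6 26.1, Cish 6.69 and Cdkn1a 147, whereas d24 replicate 1 has low Cish (6.36) with Bcl6 at only 4.11.

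In the plot of Cish and Cdkn1a against Bcl6, every paired-end X-ray liver library had higher Bcl6 and lower Cish than every untreated one. In the single-end d24 liver, low Cish and high Cdkn1a did not come with high Bcl6 in every library. Of the d24 liver libraries, replicates 1 and 2 had Cdkn1a of 359.6 and 364, yet Bcl6 was 4.11 in the first and 21.6 in the second. The first also had the lowest Cish of all single-end liver libraries. Replicate 3 had Cdkn1a of 108, Bcl6 of 8.78 and the highest Igf1 of the table (1189.7). Igfbp1 was 7508, 9616 and 3251 in d24 and 1795, 2047 and 1614 in wt liver and did not pass (1.77 ± 0.39, limma adjusted p = 0.0895), nor did the insulin receptor substrate gene Irs2 (1.74 ± 0.37, 0.0856).

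In single-end thymus 0 of 9 tested members were called by limma (4 at an unadjusted p under 0.05; edgeR gave 0 and DESeq2 1, Ghr), and 0.00724% of all 13818 genes were. Bcl6 was 43.7, 59.2 and 60.4 in d24 and 92.6, 71.3 and 84.3 in wt, with no overlap (-0.61 ± 0.19, limma adjusted p = 0.35). Socs1 was 32.5, 38.7 and 40.6 against 49.4, 48.6 and 54.8, also apart (-0.45 ± 0.19). Ghr was 6.74, 7.67 and 27.1 against 2.77, 2.28 and 1.68 (2.12 ± 0.56, limma adjusted p = 0.287), and passed when all 18 libraries shared a fit (0.00901). The d24 thymus library replicate 3, with the highest Ghr, Igf1 (83.5) and hepatocyte sum (1302, against 40.3 and 98.8 in the other d24 and at most 16.3 in the wt libraries), stood apart, and without it the Ghr difference was 1.51. The part of those cells in it was not tested. Stat5a (100.1, 95.3 and 65.2 against 111, 113 and 115) and Stat5b (193, 198 and 160.5 against 199, 214 and 209) were lower in each d24 library and did not pass. In all, 1 tested member was higher and 4 were lower without overlap, beside 9.02% and 7.55% of all genes and 16.6% in either direction. Cish and Socs3 overlapped between the thymus groups.

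The d24 difference itself varied between tissues for Cish and Socs3. By limma's F test over the 18 single-end libraries Cish (F = 13.1, adjusted p = 0.0365) and Socs3 (F = 12.5, adjusted p = 0.0411) passed among the 10 members, and 0.988% of all 16092 genes did. The Cish difference was 3.51 ± 0.70 larger in spleen than in liver (limma adjusted p = 0.0253, with 0.503% of all genes called), and that of Socs3 was 2.85 ± 0.57 larger in spleen than in thymus (0.0251, with 0.652% called). For Ghr the thymus difference exceeded that of liver by 2.49 ± 0.52 (limma adjusted p = 0.0476, with 0.298% called), and without d24 thymus replicate 3 by 1.87 (0.0545). That Ghr call was also lost with the pseudocount at 0.1 (adjusted p = 0.0553) or 2 (0.0555), without any of the wt liver or wt thymus libraries in turn, and with the replicate block (0.0648). The Cish difference between spleen and liver lost its call at a pseudocount of 0.1 (adjusted p = 0.0577), under edgeR (0.0605) and without any 1 of 7 libraries (d24 liver 1, d24 spleen 2 and 3, wt liver 1 and 2, wt spleen 1 and 2), with an adjusted p of at most 0.0849. The Socs3 difference between spleen and thymus lost its call without any 1 of 7 libraries (d24 spleen 2 and 3, d24 thymus 2, wt spleen 1 and 2, wt thymus 1 and 2), with at most 0.0782. At a pseudocount of 0.1, under edgeR, with the replicate block and with Xist as a covariate, 0 members passed the F test. The treatment tags ran opposite ways, xray in d24 and control in wt spleen, but control in d24 and xray in wt liver and thymus, so tissue and tagged treatment cannot be told apart in these differences. In liver Cdkn1a did not follow the tags. It was higher in d24 replicates 1 and 2, tagged control, than in any wt library, tagged xray, so the treatment of these libraries is uncertain.

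The genes most like Bcl6 and Cish were found by the root mean square distance between centred log2 profiles over the 18 paired-end libraries, among 15654 genes. Nearest to Bcl6 were Slc43a2 (0.556), Gprc5b (0.586), Impact (0.592), Cep126 (0.602) and Epb41l4a (0.614). The group means of Cep126 and Epb41l4a were above 1 only in thymus, so these genes passed the expression filter through thymus. Slc43a2 was 32.0 ± 7.05 in untreated and 49.1 ± 10.6 (SD, n = 3) in X-ray liver and was highest in thymus (98.7 ± 1.99 untreated), as Bcl6 was. Its liver change was smaller than that of Bcl6 (7.77 ± 1.23 untreated and 39.8 ± 7.80 after X-rays). Nearest to Cish were Emilin1 (0.805), Exoc3l (0.820), Cntfr (0.830), Eme2 (0.867) and B4galt1 (0.868). Emilin1 was 41.3 ± 8.05 in untreated and 24.3 ± 8.41 in X-ray liver, and 34.95 ± 5.33 and 54.0 ± 4.38 in spleen. Its liver change was smaller than that of Cish (60.7 ± 29.9 untreated and 6.21 ± 2.32 after X-rays).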

How the data were processed

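Total RNA from organ pieces was sequenced with a stranded total RNA kit, per the labels' protocols. The deposited values are a normalised signal per gene, made by the authors with edgeR on mm10, per the submitters' processing notes; for the aligner, the counting tool and its strand setting nothing is given in the sources used here. The signal was not plain CPM, which gives every column the same total. Column totals were 583755 to 2013163 in the paired-end and 642508 to 2383151 in the single-end libraries. Within a column the signal was a whole multiple of a fixed step (100% of values, tolerance 0.01 step), so reads were recovered. These numbered 44348579 to 81322683 per paired-end and 20481048 to 38042710 per single-end library. The paired-end table had 18 further value columns that matched no library and were not used. NCBI gene numbers were matched to RefSeq symbols for 96.7% of paired-end and 97.1% of single-end genes. Groups came from titles.

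Each comparison used limma 3.58.1 (R 4.3.3) with trend on log2(signal + 0.5), over the 6 libraries concerned or, for differences between tissues, over all 18 of a table. Genes with a signal of 1 or more in 3 or more libraries were kept, and Benjamini-Hochberg adjusted p under 0.05 over all genes was called. Fold changes on this scale understate those of low genes. The code was tested on simulated data. Alternatives were other pseudocounts, filters and scalings, edgeR 4.0.16 and DESeq2 1.42.0 on recovered reads, Xist as a covariate, a replicate block and leaving out each library. Levels per kilobase used the union of exons in GENCODE M21. Members and gene lists were chosen with earlier results of these data known. Named were all 10 members, up to 4 genes of smallest p per list and the 5 genes nearest in profile to Bcl6 and to Cish; the fifth-ranked and later genes of a list were only counted.

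Pairing by replicate number was checked from residuals. Same-numbered spleen libraries of the X-ray comparison correlated at 0.18, 0.24 and 0.19, each best with its own number, which comes from the data and not from the design; replicate 2 differed in Xist between untreated and X-ray groups. No other comparison had all 3 pairs above 0.1.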

Additional observations from a re-analysis of the deposited data

Results flagged for a closer look

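The d24 difference varied between tissues for Cish (F = 13.1, limma adjusted p = 0.0365) and for Socs3 (F = 12.5, limma adjusted p = 0.0411). For Cish it was 3.51 larger in spleen than in liver on the log2 scale, and for Socs3 2.85 larger in spleen than in thymus. For Ghr the thymus difference exceeded that of liver by 2.49. Both F tests were lost at a pseudocount of 0.1, under edgeR, with the replicate block and with Xist as a covariate, with adjusted p of at most 0.1004 for Cish and 0.111 for Socs3 over all alternatives, and each of the 3 single differences was lost when certain libraries were left out. The treatment tags are opposite between spleen (xray in d24, control in wt) and the other tissues (control in d24, xray in wt), so tissue and tagged treatment cannot be told apart. Cdkn1a did not follow the tags in liver.

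After X-rays Cish moved in opposite directions: -3.14 in liver, where all 3 X-ray libraries lay below all untreated ones, and 1.02 in spleen and 0.51 in thymus, where all 3 lay above. Of all genes, 13.9% were lower without overlap in liver, and 24.5% were higher in spleen and 18.6% in thymus. The thymus call of Cish was lost in a single fit of all 18 libraries (limma adjusted p = 0.236) and when certain libraries were left out. The difference between tissues was not tested, because the liver fall was a reason for choosing the gene.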

How the results depend on the processing

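Among the 9 members tested in X-ray spleen, 8 were called as deposited (Socs1 included), 4 under plain CPM and 5 to 8 when a library was left out. In X-ray thymus 2 were called, 1 when all libraries shared a fit and 1 to 2 with a library left out. In d24 spleen 2 were called, 1 with Xist as a covariate and 3 by DESeq2. In d24 thymus 0 were called, and 1 in a shared fit and by DESeq2. For the X-ray effect of spleen minus thymus 0 were called, with 1 at a pseudocount of 2 and by DESeq2, and 0 to 1 with a library left out. For the d24 difference between tissues 2 were called, with 0 at a pseudocount of 0.1, by edgeR and with Xist as a covariate, 1 without trend, and 0 to 2 with a library left out. With the replicate block this count was 0, the Ghr call for thymus minus liver and the Socs2 call for untreated spleen minus thymus were lost, and X-ray spleen kept a count of 8. Plain CPM reversed Socs3 for untreated liver minus spleen (-0.75) and Igf1 for untreated spleen minus thymus (-0.23). The cause was not tested. DESeq2 was not run for the F tests. Of the single-gene alternatives, 3087 were counted as keeping direction and call, 90 changed sign with no call before or after, 116 lost a call, 21 gained one and 2 reversed. In X-ray liver, calls were not compared, and a result counted as unchanged if its difference stayed within the SD of the replicates. Bcl6 and Cish of X-ray liver were left out of these counts. For the F tests only the call was compared, since F has no direction. In X-ray liver, DESeq2 called 631 genes where limma called 32. With 3 libraries per group and a single-end liver group this wide, small differences were not detectable.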
